A study of Danio rerio with 16 samples.

Results

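The dynein arm and radial spoke genes of zebrafish (Danio rerio) were followed in adult testes after early-life exposure to the dioxin TCDD, an environmental contaminant that binds the aryl hydrocarbon receptor. A row was taken as a member when its RefSeq mRNA accession mapped to a gene symbol that starts with dnah, dnai, dnal, dnaaf, odad, drc or rsph. The RefSeq annotation of assembly GRCz12tu holds 52 such symbols, and 40 of them had a row in at least 1 of the tables used here. The bulk-seq tables held 29 members among 14792 rows, the pseudo bulk-seq table of TCDD and control testes (TPxCP) held 30 among 6847 rows, and the tables of cell clusters held 37. By class, the pseudo bulk-seq table had 6 heavy chains, 1 intermediate chain, 4 light chains, 3 docking complex genes, 8 assembly factors, 5 genes of the nexin-dynein regulatory complex and 3 radial spoke genes. The bulk-seq tables had 4, 4, 3, 7, 7 and 4 genes of the same classes from intermediate chain onward, and no heavy chain row. A total of 22 genes were in both kinds of table, 8 only in pseudo bulk-seq, 7 only in bulk-seq and 3 (rsph4a, drc9 and dnah12) only in the cluster tables.

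The sperm tail is a motile cilium whose core, the axoneme, is a ring of microtubule doublets around a central pair. Outer and inner dynein arms on each doublet are motor complexes of heavy chains, which hydrolyse ATP, and of intermediate and light chains, which assemble and anchor the motor. Dynein axonemal assembly factors (dnaaf) work in the cytoplasm, where they fold the motors before transport, and the outer dynein arm docking complex (odad) fixes the arms to the doublet. The nexin-dynein regulatory complex (drc) links neighbouring doublets, and radial spokes (rsph) pass signals from the central pair to the arms. Fish spermatids build a flagellum of this kind late in spermatogenesis, and most of the roles given below were worked out in Chlamydomonas, mouse or human.

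All fish were of the AB strain. Fish had been placed for 1 h at 3 and again at 7 weeks post-fertilization in water with TCDD at 50 pg/ml (TB and TP) or with the vehicle, 0.1% DMSO (CB, CP, CD and CI). The labels also give 50 pg/ml for controls, and the exposure in the study's methods was followed. Exposures were made in successive blocks of fish, and no source used here links a library to a block. TB (n = 2) and CB (n = 3) were bulk-seq libraries, and TP (n = 2) and CP (n = 3) pseudo bulk-seq libraries, that is, droplet scRNA-seq counts summed over cells, of enzymatically dissociated testes at 1.5 years of age. CD (n = 3) was bulk-seq of dissociated and CI (n = 3) of intact control testes at 1 year of age, with 1 testis of a fish dissociated and the contralateral testis left intact. Which CI library came from the same fish as a given CD library is not stated. Dissociated samples were also freed of dead cells, and intact testes were stored in RNALater, a step not described for dissociated ones. These steps and dissociation cannot be told apart.

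Total counts were 4828801 to 36172885 per bulk-seq library and 3490409 to 9987998 per pseudo bulk-seq library, and the smallest member count in any library was 44. The TBxCB table lists its accessions in the opposite order to its counts: its reversed counts correlated with those of CDxCI at r = 0.97 over 14792 rows, and the counts as listed at −0.91, so they were reversed. Its column names give exposure and a number but not a sample's own label, and TB and CB libraries are numbered here as those names are. TB replicate 2 stood apart from the other dissociated libraries, with a rank correlation of 0.903 to 0.917 to TB and CB and its highest value, 0.921, to CI replicate 2. Listed germ cell markers were present in each kind of library, while Sertoli and Leydig markers were at a summed 222 to 259 and 39.8 to 224 CPM in CD, against 1507 to 2371 and 3861 to 5595 CPM in CI. Most of the Sertoli sum in CD was dmrt1, with 217, 208 and 202 CPM in CD, against 154, 289 and 222 CPM in CI. This gene was not specific to Sertoli cells here: of the cell clusters described below, it was detected in 75, 84.3 and 69.9% of cells in clusters 2, 3 and 5. The direction of CDxCI follows the column names. The table's own column of fold changes runs the other way. In the separately scaled TBxCB table, whose testes were dissociated too, the same Sertoli and Leydig lists summed to 209 to 319 and 108 to 329 CPM, closer to the libraries named CD. There too dmrt1 made up most of the Sertoli sum, at 148 to 237 CPM.

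In pseudo bulk-seq, nearly every measured gene of the apparatus was lower in TCDD testes. Of 30 members, 29 were lower in TP than in CP at an adjusted p under 0.05 and none was higher, while 19.4% of all 6847 rows tested were called lower (edgeR's quasi-likelihood test, adjusted over all rows). The exception was the assembly factor dnaaf11, with a log2 fold change of −1.73 and an adjusted p of 0.0524. The median log2 fold change was −2.57 over members and 0.03 over all rows. In all 30 members, both TP libraries lay below all 3 CP libraries, a pattern found in 32.8% of all rows. Members took 0.136% ± 0.0458 of the counts in TP (SD, n = 2) and 0.882% ± 0.292 in CP (SD, n = 3). By the study's own cut-offs (log2 fold change beyond 1 in either direction and p below 0.01 before adjustment), 28 members were lower, against 13.8% of all rows. Every row of this table has at least 30 counts in every library, so a member below that level in TP would not be listed. The call count was 30 without CP replicate 2, the control library most like TP, and 20 without TP replicate 2, where dnaaf2, dnaaf9, dnaaf10, dnah3, dnah5, dnah5l, dnai7, drc1 and drc3 were no longer called. Upper quartile scaling gave 1444 higher and 1121 lower rows in place of 595 and 1331 and moved the median of all rows to 0.21, with 29 members lower.

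**Figure D1:**
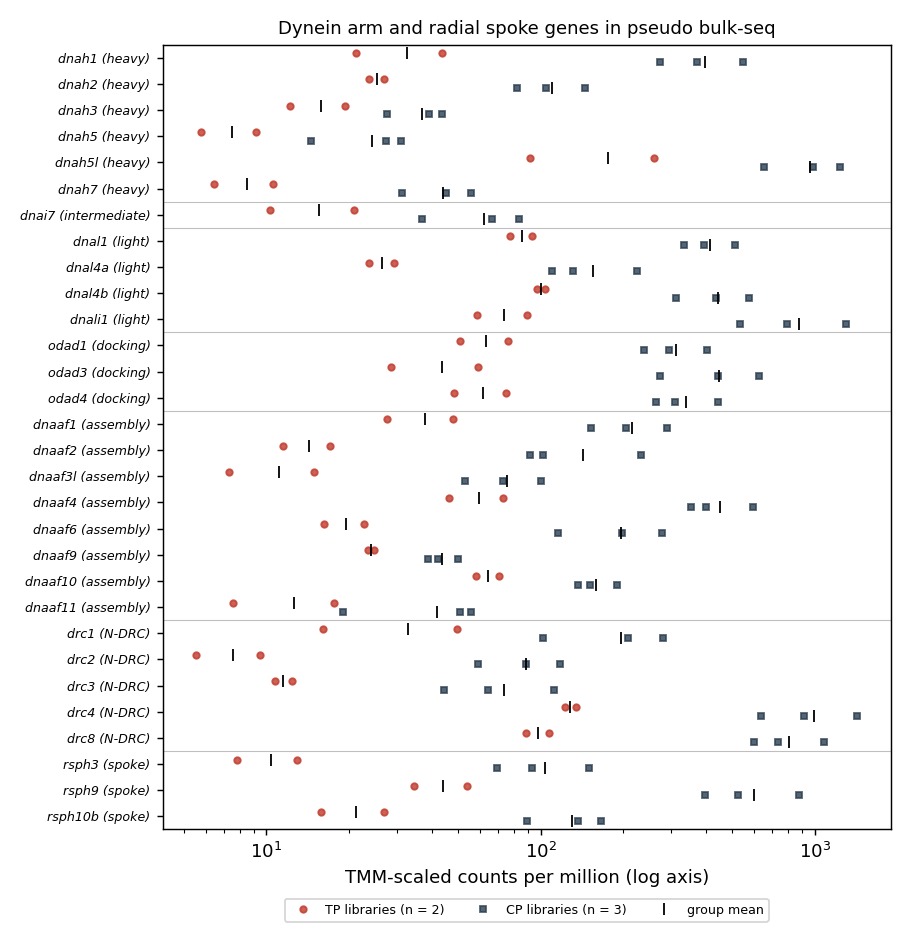
TMM-scaled CPM (counts scaled to a common library size, log axis) of the 30 members in pseudo bulk-seq, with 1 circle per TP library (n = 2), 1 square per CP library (n = 3) and a black bar for each group mean. In every row both TP circles lie left of the 3 CP squares, and the gap is narrowest for dnaaf11, at 17.6 CPM for the higher TP library and 19.0 CPM for the lowest CP library.

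Levels are given below in TMM-scaled CPM, with replicates 1 and 2 of TP before replicates 1, 2 and 3 of CP. Among the motor subunits, all 6 heavy chains fell, with log2 fold changes of −3.62 to −1.23. The inner arm heavy chain dnah1 (XM_009306184) had 43.6 and 21.3 CPM in TP, against 546, 273 and 371 CPM in CP. Its log2 fold change was −3.62 (SE 0.43, adjusted p = 0.00212 from edgeR), a 12.3-fold lower level. The 5-like heavy chain dnah5l (XM_002666688), a homolog of the outer arm gene DNAH5, had 259.8 and 91.1 CPM in TP, against 1235, 653 and 982 CPM in CP. TP replicate 2 was well below replicate 1 for this gene, and its log2 fold change was −2.45 (SE 0.48). For dnah5, an outer arm heavy chain and its paralog, the levels were 9.15 and 5.79 CPM in TP, against 31, 14.5 and 27.3 CPM in CP, and 3′ reads that fit both copies could have been split between them.

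The remaining inner arm heavy chains had smaller changes than dnah1. For dnah7 the values were 10.6 and 6.42 CPM in TP, against 55.6, 31.3 and 45.1 CPM in CP, with a log2 fold change of −2.38. For dnah2 they were 26.9 and 23.7 CPM in TP, against 145, 81.9 and 104 CPM in CP, with a log2 fold change of −2.12. The smallest change of a heavy chain was that of dnah3, with 19.4 and 12.2 CPM in TP, against 39.2, 27.6 and 43.8 CPM in CP and a log2 fold change of −1.23 (SE 0.30, adjusted p = 0.0252 from edgeR). The dnah3 and dnah5 calls were lost when either TP library or CP replicate 3 was left out, with adjusted p up to 0.194 and 0.164.

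Intermediate and light chains followed the heavy chains. The intermediate chain gene dnai7, a partner of the inner arms, had 20.8 and 10.3 CPM in TP, against 83.7, 36.9 and 66.2 CPM in CP, a log2 fold change of −2.0. The light intermediate chain dnali1 (NM_001110114), an inner arm subunit, had 89.2 and 58.5 CPM in TP, against 1302, 536 and 795 CPM in CP. It was 11.9-fold lower in TP, with a log2 fold change of −3.57 (SE 0.43, adjusted p = 0.00217 from edgeR). The outer arm light chain dnal1, which binds the motor domain of a heavy chain, had 93.1 and 77.5 CPM in TP, against 512, 334 and 393 CPM in CP, a log2 fold change of −2.28. The paralogs dnal4a and dnal4b encode homologs of an outer arm light chain, and their 3′ reads could have been split between them. Their log2 fold changes were −2.55 and −2.13, and dnal4b had 104 and 97.1 CPM in TP, against 576, 313 and 437 CPM in CP. All 11 measured motor subunits thus fell, and among light chains dnali1 had the largest change.

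All 3 measured docking complex genes fell. The coiled-coil docking gene odad3 (NM_001077369) had 59.2 and 28.5 CPM in TP, against 625, 272 and 443 CPM in CP, a log2 fold change of −3.35 (SE 0.47, adjusted p = 0.00324 from edgeR). For odad1, a docking subunit that lies along the doublet, the values were 75.7 and 50.6 CPM in TP, against 405, 238 and 293 CPM in CP. The tetratricopeptide repeat protein odad4 had 74.5 and 48.5 CPM in TP, against 443, 263 and 309 CPM in CP. Log2 fold changes of these 2 genes were −2.30 and −2.46.

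Assembly factors showed the widest range, −3.34 to −0.85. The Hsp90 cochaperone dnaaf6 had 22.6 and 16.2 CPM in TP, against 278, 116 and 198 CPM in CP, and dnaaf2, the kintoun homolog that acts with chaperones on dynein heavy chains, had 17 and 11.5 CPM in TP, against 233, 91.7 and 102 CPM in CP. Their log2 fold changes were −3.34 (SE 0.41) and −3.32 (SE 0.49). For dnaaf4, another cochaperone, the levels were 72.8 and 46.5 CPM in TP, against 593, 353 and 401 CPM in CP, with a log2 fold change of −2.91. The leucine-rich repeat factor dnaaf1 had 48.1 and 27.5 CPM in TP, against 289, 153 and 204 CPM in CP, and dnaaf3l had 14.9 and 7.31 CPM in TP, against 73.2, 53.1 and 101 CPM in CP, for log2 fold changes of −2.51 and −2.79. All 5 of these factors were called.

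The other 3 assembly factors moved less. The leucine-rich repeat factor dnaaf11 had 17.6 and 7.56 CPM in TP, against 55.6, 19 and 50.7 CPM in CP, the case in which CP replicate 2 lay close to TP replicate 1. Its adjusted p was 0.00268 by DESeq2, and ranged over the alternatives up to 0.274, without TP replicate 2. For dnaaf10, a WD repeat protein bound to prefoldin-like chaperones, the values were 70.3 and 58.2 CPM in TP, against 189.9, 137 and 152 CPM in CP, a log2 fold change of −1.31. The smallest change of any member was in dnaaf9, the homolog of a Tetrahymena factor that packages outer arms, with 24.8 and 23.6 CPM in TP, against 49.8, 42.3 and 38.9 CPM in CP and a log2 fold change of −0.85 (SE 0.20, adjusted p = 0.0211 from edgeR). Without TP replicate 1 or 2 the dnaaf9 call was lost, with adjusted p up to 0.178.

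All 5 measured genes of the nexin-dynein regulatory complex fell. The largest difference was in drc2 (XM_005165699), a coiled-coil subunit, with 9.51 and 5.54 CPM in TP, against 118, 59.1 and 88.1 CPM in CP, or 11.8-fold lower in TP. The Ca2+-binding subunit drc8 had 107 and 88.3 CPM in TP, against 1083, 599 and 736 CPM in CP, and its log2 fold change of −3.04 had the smallest unadjusted p of all members (SE 0.30, adjusted p = 0.00169 from edgeR). The growth arrest-specific protein drc4, a core scaffold, had 134 and 122 CPM in TP, against 1430, 634 and 912 CPM in CP. The leucine-rich repeat subunit drc3 had 12.4 and 10.7 CPM in TP, against 112, 44.6 and 64.1 CPM in CP, and drc1, which anchors the complex, had 49.7 and 16.1 CPM in TP, against 280.0, 102 and 209 CPM in CP. Log2 fold changes were −2.95 for drc4, −2.66 for drc3 and −2.59 for drc1.

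Radial spoke genes had the lowest median of the classes, at −3.33. The head protein rsph9 (NM_001030113) had 53.8 and 34.6 CPM in TP, against 874, 398 and 526 CPM in CP, the largest change of any member. Its log2 fold change was −3.76 (SE 0.41, adjusted p = 0.00182 from edgeR), a 13.6-fold lower level. The stalk protein rsph3, an anchor for protein kinase A, had 12.9 and 7.81 CPM in TP, against 149.8, 69.2 and 92.9 CPM in CP. The spoke gene rsph10b had 26.7 and 15.9 CPM in TP, against 166, 89 and 136 CPM in CP. Log2 fold changes were −3.33 for rsph3 and −2.62 for rsph10b.

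By larger group, the median log2 fold change was −2.28 over 11 motor subunits, −2.51 over 11 docking and assembly genes, −2.95 over 5 genes of the nexin-dynein regulatory complex and −3.33 over 3 radial spoke genes. The ranges overlapped: −3.62 to −1.23, −3.35 to −0.85, −3.56 to −2.59 and −3.76 to −2.62. Differences between the groups were not tested.

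**Figure D2:**
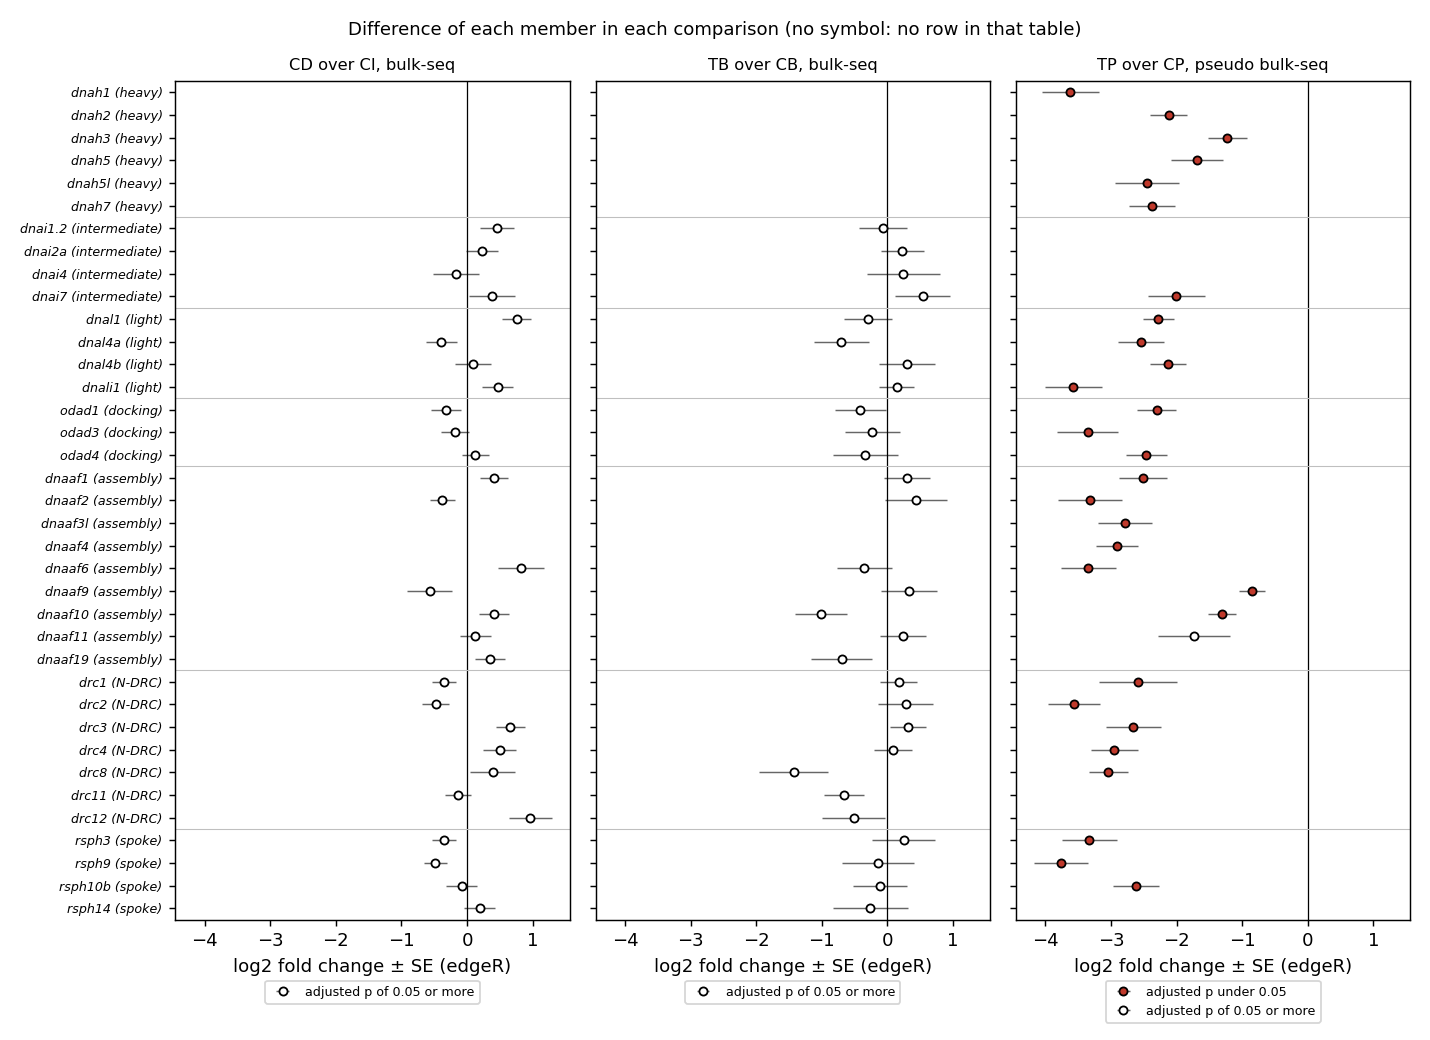
Log2 fold change ± SE of every member with a count row, from edgeR, for CD over CI (left), TB over CB (middle) and TP over CP (right), with filled points at an adjusted p under 0.05. In TP over CP, 29 of 30 points are filled and all lie left of 0, while in both bulk-seq comparisons 0 of 29 are filled and the points lie on both sides of 0.

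Other axonemal genes in TPxCP moved the same way. Of 11 central pair rows, 11 fell, with a median log2 fold change of −2.58; spag6, a central apparatus protein, had 48.6 and 33.4 CPM in TP, against 813, 388 and 532 CPM in CP. All 19 rows of tektins and doublet inner proteins fell, with a median of −3.36, and pierce1, a microtubule inner protein of the doublet, had 65.3 and 73.8 CPM in TP, against 1840, 957 and 1178 CPM in CP. Of 17 dynein arm and spoke partners under other names, 15 fell, with a median of −2.39. The spoke protein gene dnajb13 had 22.1 and 17.3 CPM in TP, against 452, 211 and 284 CPM in CP, a log2 fold change of −4.00. The 2 that were not called were mycbp, which encodes a binding partner of Myc, at −0.36, and pih1d1, a chaperone adaptor of many complexes, at −0.45, both named after their values were seen. The background for these counts is the 19.4% of rows called lower.

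Cytoplasmic dynein and shared light chains were mixed: 7 of 14 rows fell and 1 rose, with a median log2 fold change of −0.67. Of all 6847 rows, 595 were called higher and 1331 lower, the background for the counts in this paragraph. The light chain dynlrb1 had a log2 fold change of −1.69, and the intraflagellar transport dynein chain dync2li1 had −2.70. The row that rose was dync1h1, the heavy chain of cytoplasmic dynein 1, with 27.8 and 28.5 CPM in TP, against 14.1, 18.5 and 18.3 CPM in CP; it was named after its values were seen. Among 6 rows on the list of motile ciliogenesis regulators, 2 fell and 2 rose. Those that rose were rfx7a (1.17) and e2f4 (0.54), and those that fell were foxj1a and ankrd66 (−3.01), which encodes an ankyrin repeat protein. The master regulator of motile cilia foxj1a, also the only measured marker of multiciliated epithelium, had 36.6 and 20.3 CPM in TP, against 222, 98.3 and 159 CPM in CP, a log2 fold change of −2.49. It was not specific to an epithelium here, and its shares of cells by cluster are given below.

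Most spermatid and sperm markers moved with the members, spermatocyte markers less so (median log2 fold change −0.89), and the 2 measured spermatogonial markers did not. Some of these markers, such as gapdhs, piwil1 and sycp1, were detected well beyond the stage they are listed for, with shares of cells by cluster given below. The summed level of 7 spermatid and sperm markers of 24 listed was 652 to 734 CPM in TP, against 1841 to 3013 CPM in CP, and 6 of the 7 fell. Of these, ropn1l and spata17 also stand on the axonemal lists above. The exception, gapdhs, which encodes a sperm glycolytic enzyme in mouse, had 452 and 572 CPM in TP, against 422, 409 and 381 CPM in CP. It made up most of the marker sum in TP. The 11 spermatocyte markers summed to 2397 to 2898 CPM in TP, against 4733 to 6794 CPM in CP, with 6 of 11 lower. Much of that sum was sycp1, with 338 and 167 CPM in TP, against 3297, 1990 and 2320 CPM in CP. Its log2 fold change, −3.33, was the lowest of the 11, and 1 of the 11 was above 0. Both spermatogonial markers measured were not called, and summed to 1421 to 1547 CPM in TP and 865 to 1148 CPM in CP. Rows for Leydig, endothelial and erythrocyte markers were at 0 of 9, 0 of 5 and 0 of 6 in this table. In summed counts, fewer cells of a type and less RNA per cell cannot be told apart, and the part of germ cell composition in the members' change was not tested.

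Bulk-seq of TCDD and control testes (TBxCB, with counts reversed as described) gave no call among the members. With edgeR, 0 of 29 members and 0 of 12939 rows (0%) were called at an adjusted p under 0.05. DESeq2 also called 0 members, against 0.0654% of its rows. At an unadjusted p under 0.05 there were 2 members, against 8.88% of rows, and at the study's thresholds 0 members, against 1.3% of rows. The median log2 fold change was −0.06 over members and −0.05 over all rows, with 14 members above 0 and 15 below. Members took 0.571% ± 0.0628 of the counts in TB (SD, n = 2) and 0.573% ± 0.145 in CB (SD, n = 3). The TB and CB libraries did not overlap for 2 members with lower levels in TB, against 16.1% of rows, and for 2 with higher levels, against 13.8% of rows. Without TB replicate 2, which stood apart, 0 members were called and their median was −0.36. Without TB replicate 1 it was 0.24, with 0 members called.

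The members with an unadjusted p under 0.05 were drc8, of the regulatory complex, and dnaaf10, an assembly factor. In order of replicate number, drc8 had 73.1 and 54.4 CPM in TB, against 234, 65.5 and 217 CPM in CB, where CB replicate 2 lay between the TB libraries. Its log2 fold change was −1.43 (SE 0.52, adjusted p = 0.553 from edgeR). For dnaaf10 the values were 56.8 and 51.8 CPM in TB, against 132, 61.7 and 136 CPM in CB, a log2 fold change of −1.01 (SE 0.39, adjusted p = 0.553 from edgeR). The levels of drc11, an ATPase-domain subunit of the regulatory complex, were 98.3 and 94.6 CPM in TB, against 127, 145 and 186 CPM in CB, without overlap, at an adjusted p of 0.555 from edgeR.

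The most abundant member of each class was not called either. The radial spoke head gene rsph9 had 190.4 and 544 CPM in TB, against 465, 181 and 575 CPM in CB, so that the TB libraries spanned nearly the same range as CB (log2 fold change −0.15, SE 0.55). The light intermediate chain dnali1 had 254 and 286 CPM in TB, against 255, 230.5 and 249 CPM in CB, a log2 fold change of 0.14. For drc1 the values were 924 and 1359 CPM in TB, against 1111, 879 and 1049 CPM in CB, and for odad3 209 and 267 CPM in TB, against 332, 138 and 366 CPM in CB. The intermediate chain dnai1.2, an outer arm subunit, had 329.8 and 241 CPM in TB, against 397, 188 and 309.9 CPM in CB, and dnaaf1 had 239 and 353 CPM in TB, against 264, 158 and 299 CPM in CB. Among the others of the 10 smallest p, log2 fold changes were −0.71 for dnal4a, −0.70 for dnaaf19, 0.54 for dnai7, 0.31 for drc3, −0.52 for drc12, −0.41 for odad1 and 0.44 for dnaaf2. None of these was called. On the other lists, 0 of 8 central pair rows, 0 of 20 rows of tektins and doublet inner proteins and 0 of 22 partners were called. No row at all was called in this comparison. Log2 fold changes were below 0 for 7, 12 and 19 rows of these lists (medians −0.45, −0.31 and −0.24), against 52.8% of all rows. Spermatid and sperm markers summed to 1356 to 1471 CPM in TB and 1306 to 2097 CPM in CB, with 0 of 12 called. A large part of these sums was gapdhs, at 741 and 541 CPM in TB and 674, 751 and 725 CPM in CB. Of the 12 markers, 10 were below 0, with a median log2 fold change of −0.48. The direction of a list was not tested.

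**Figure D3:**
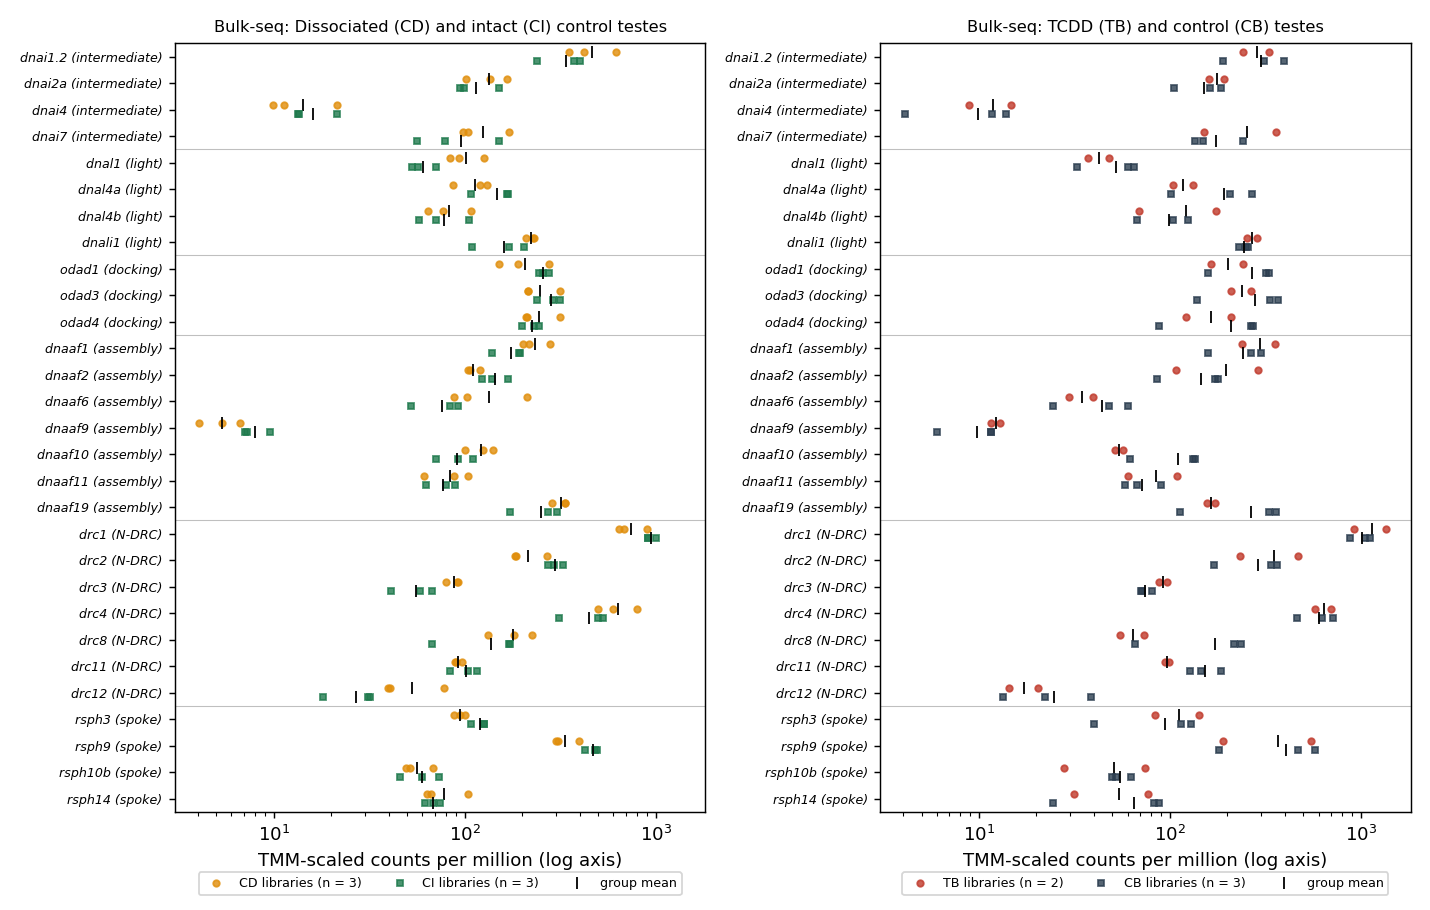
TMM-scaled CPM (log axis) of the 29 bulk-seq members, with circles for CD (n = 3) and TB (n = 2) libraries, squares for CI and CB libraries (n = 3 each) and a black bar for each group mean. Circles and squares overlap in most rows, and for rsph9 the TB circles, at 190.4 and 544 CPM, span almost the range of the CB squares.

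Since TB and TP came from divided suspensions of the same testes, as did CB and CP, the TCDD effect was compared between methods in 1 fit, as TP over CP minus TB over CB, for the 19 members whose accession was in both tables (dnaaf11, dnai7 and drc2 had another accession in each). With edgeR, 14 of 19 were called lower, against 6.15% of the 4388 shared rows, and 0 were called higher. All 19 differences were below 0, with a median of −2.85 over members and 0.16 over all shared rows. Libraries of 1 suspension were treated as independent, and 0 members were called without TP replicate 2 and 8 without TP replicate 1. Without TB replicate 2, 12 were called. With the suspension as a block, taken from the exposure and number in the column names (10 libraries, 3 residual degrees of freedom), 16 were called. That fit added dnal4a, drc8 and odad4 (adjusted p = 0.00697, 0.0257 and 0.0268 from edgeR) and dropped rsph10b (0.0524).

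The largest difference was that of dnaaf2, −3.87 (SE 0.73, adjusted p = 0.011 from edgeR), with a log2 fold change of −3.32 for TP over CP and 0.44 for TB over CB. For dnali1 the difference was −3.80 (SE 0.48, adjusted p = 0.0054 from edgeR), with −3.57 for TP over CP and 0.14 for TB over CB. All 3 radial spoke genes were called without the block, at −3.73 for rsph9, −3.70 for rsph3 and −2.59 for rsph10b. So were drc4, drc3 and drc1 (−3.13, −3.07 and −2.85), odad3 and odad1 (−3.24 and −2.0), dnaaf6 and dnaaf1 (−3.10 and −2.92), and the light chains dnal4b and dnal1 (−2.54 and −2.09).

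The 5 members not called without the block were odad4, dnal4a, drc8, dnaaf9 and dnaaf10. For odad4 and dnal4a the adjusted p was 0.0536 and 0.0553. The regulatory complex gene drc8 had a log2 fold change of −3.04 for TP over CP, which was called, and of −1.43 for TB over CB, which was not. Its difference was −1.74 (SE 0.61, adjusted p = 0.106 from edgeR without the block). The closest values between methods were those of dnaaf10, at −1.31 and −1.01, with a difference of −0.41 (SE 0.43, adjusted p = 0.553 from edgeR). For dnaaf9 the difference was −1.26 (adjusted p = 0.115 from edgeR). A missed threshold does not show that the 2 methods gave the same effect for these genes. The heavy chains had no bulk-seq row and could not be compared.

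Dissociation of control testes (CDxCI) gave no call among the members either. With edgeR, 0 of 29 were called at an adjusted p under 0.05, against 2.22% of 12773 rows, and DESeq2 called 0 members, against 6.53% of its rows. The median log2 fold change was 0.13 over members and 0.01 over all rows. At an unadjusted p under 0.05 there were 6 members, against 17.3% of rows, and at the study's thresholds 0 members, against 4.79% of rows. CD and CI did not overlap for 6 members with lower levels in CD, against 13.1% of rows, and for 5 with higher levels, against 13.3%.

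Of the 6 members, 4 had higher levels in CD. The light chain dnal1 had 93.7, 83.9 and 127 CPM in CD, against 71, 52.7 and 57 CPM in CI, a log2 fold change of 0.75 (SE 0.22, adjusted p = 0.125 from edgeR), the smallest p of the members. For drc12, a coiled-coil subunit, the values were 39.6, 40.8 and 78.3 CPM in CD, against 31.9, 18.1 and 31 CPM in CI, and drc3 had 91.6, 79.3 and 92.5 CPM in CD, against 58, 41.1 and 67.6 CPM in CI. The assembly factor dnaaf6 had 87.4, 102 and 213 CPM in CD, against 83.8, 92.2 and 52.5 CPM in CI, with overlap. Log2 fold changes were 0.97 for drc12, 0.66 for drc3 and 0.82 for dnaaf6.

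The other 2 had lower levels in CD. The spoke head gene rsph9 had 307, 302 and 397 CPM in CD, against 428, 493 and 484 CPM in CI, a log2 fold change of −0.48 (SE 0.18, adjusted p = 0.213 from edgeR). For drc2 the values were 184, 186 and 270.4 CPM in CD, against 274, 293 and 327 CPM in CI, a log2 fold change of −0.48. The next 4 by p were drc4, dnali1, dnaaf2 and drc1, at log2 fold changes of 0.49, 0.47, −0.38 and −0.35. The most abundant intermediate chain, assembly factor and docking gene were dnai1.2, dnaaf19 and odad3, at 0.46, 0.35 and −0.19. By class, medians lay between −0.22 (radial spoke) and 0.39 (nexin-dynein regulatory complex).

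Among other axonemal genes in CDxCI, 0 of 8 central pair rows and 0 of 22 partners were called. Among 20 rows of tektins and doublet inner proteins, 2 were called lower in CD and 0 higher, against 2.22% of all rows called. Of these, cfap126 had 478, 660.4 and 546 CPM in CD, against 903, 1112 and 1454 CPM in CI, and was named after its values were seen.

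In the cluster tables, each row gives the share of cells with a transcript inside 1 of 10 clusters and in all other cells. The clusters carry numbers in the tables and are called by number here. Cells of all samples were merged for clustering according to the study's methods, so shares cover TCDD and control cells together unless the tables held fewer. How doublets were treated is not given in the sources used here, and none were removed here. A share can move with the depth of a cluster's cells, which was not measured here. Over 297 transcripts listed for all clusters, the median share was 7.6 to 31.5% in clusters 1 to 5 and 33.0 to 64.8% in clusters 6 to 10. This set was fixed by the listing and includes 6 members, so its medians do not measure depth alone. Differences between clusters are descriptions with no test, since the clustering used these genes. A table does not list every transcript: 6 members were listed for all 10 clusters, and 8 for 1 or 2 clusters only.

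Higher shares of the members were found in clusters 6 to 10. In cluster 7, 34 of 34 listed members had a higher share inside than outside, against 60.6% of all transcripts listed, and in cluster 8, 32 of 32, against 49.6%. The counts were 27 of 28 in cluster 9 (30.2% of transcripts), 24 of 25 in cluster 10 (24.2%) and 13 of 14 in cluster 6 (56.1%). In clusters 2 to 5, 0 of 28, 0 of 28, 0 of 26 and 0 of 22 were higher inside, against 44.3, 48.5, 29.9 and 38.2% of transcripts. In cluster 1, 4 of 25 were higher inside, where 84.2% of transcripts were. Among the clusters that list it, each of the 37 members had its highest share in cluster 7 (21 members) or cluster 8 (16 members). Listing alone fixed this for dnah5 and dnai4 (cluster 7 only), dnaaf19 (cluster 8 only), and dnah12 and dnai2a (clusters 7 and 8 only). Cluster 8 also does not list dnaaf9, dnaaf11 or dnah3, and cluster 7 does not list dnal4a or rsph3. The split between the 2 clusters thus rests partly on listing. Clusters 7 and 8 also had the highest median shares over the 297 transcripts listed for all clusters, 55.8% in cluster 7 and 64.8% in cluster 8. The part of depth in the members' peak was not tested.

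**Figure D4:**
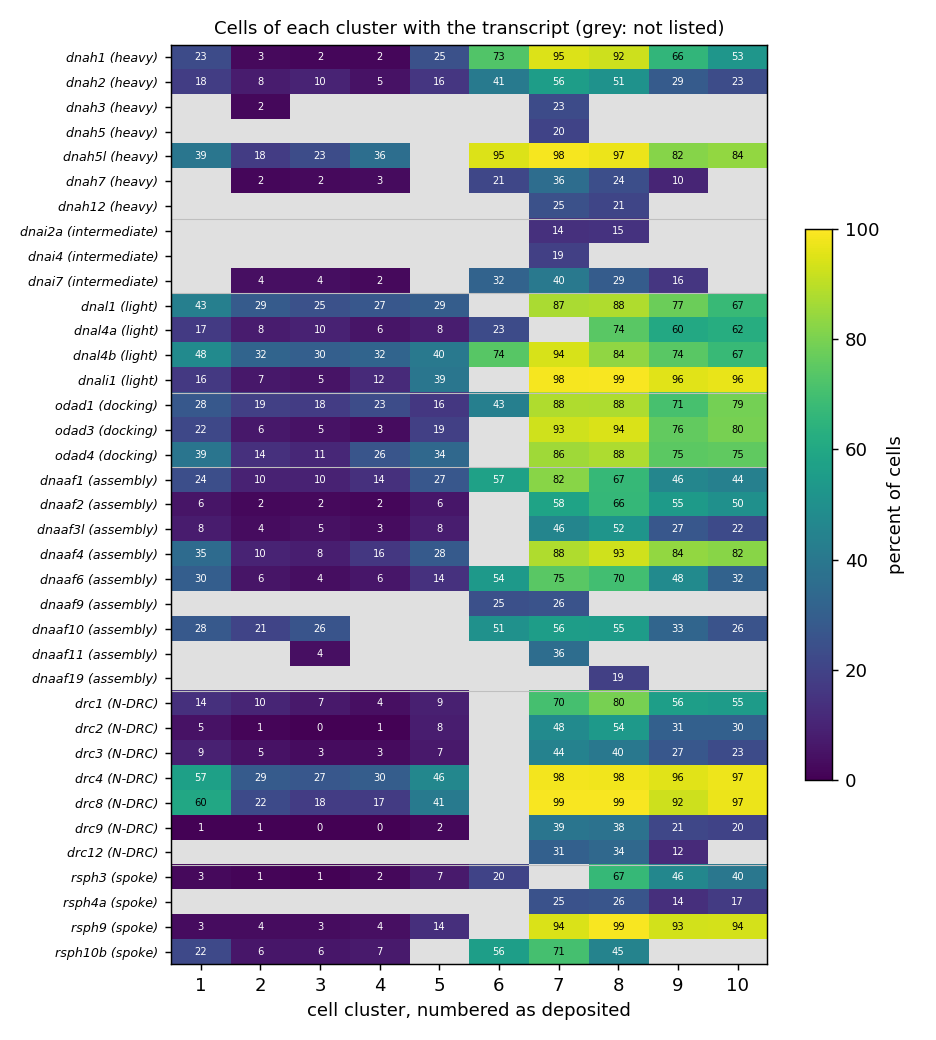
Percent of cells with the transcript (colour and number, rounded to whole percent) for the 37 members in each of the 10 clusters, ordered by class, with grey where a table does not list the transcript. Every member peaks in cluster 7 or 8 among the clusters that list it, which listing alone fixes for members listed there only. The genes dnah1 and dnah5l already stand high in cluster 6, and rsph9 is at 93.1 to 98.9% of cells in clusters 7 to 10 and at 13.5% or less in clusters 1 to 5.

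The listed germ cell markers overlapped between these clusters. Spermatocyte markers were higher inside for 9 of 9 listed in cluster 5 and 9 of 9 in cluster 6, and for 4 of 8, 2 of 9, 1 of 9 and 1 of 9 in clusters 7, 8, 9 and 10. The gene sycp1 of this list was at 98.6 to 100% of cells in clusters 6 to 10 and at 17.6 to 81.9% in clusters 1 to 5. Spermatid and sperm markers were higher inside for 5 of 6 listed in cluster 6, 8 of 9 in cluster 7, 7 of 8 in cluster 8, 8 of 9 in cluster 9 and 7 of 8 in cluster 10, and for 1 of 6 in cluster 5. Against the rest of that list, gapdhs was at 97.6, 84.7 and 84.7% in clusters 1 to 3 and at 20.2 to 48.5% in clusters 7 to 10. The spermatogonial marker piwil1 was at 98.8% in cluster 1 and at 72% in all other cells. The epithelial marker foxj1a was at 60.1, 72.2, 53.7 and 46.5% in clusters 7 to 10, and at 12.4% or less in clusters 1 to 5.

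Members differed in how far their shares extended beyond cluster 7. All 7 heavy chains listed had their highest share in cluster 7, but cluster 8 does not list dnah3 or dnah5. The inner arm heavy chain dnah1 was detected in 73% of cells in cluster 6, 94.8% in cluster 7, 92.3% in cluster 8, 66% in cluster 9 and 52.7% in cluster 10, against 1.7% in cluster 4. For dnah5l the shares were 94.8, 98.5, 96.9, 81.8 and 83.8% in clusters 6 to 10. The spoke gene rsph10b was already at 56% in cluster 6, stood at 70.7% in cluster 7 and was at 44.6% in cluster 8. The assembly factor dnaaf6 was at 54.1, 74.6, 69.9, 47.7 and 31.6% in the same clusters.

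Other members had their highest share in cluster 8. The spoke head gene rsph9 was at 94.4, 98.9, 93.1 and 93.5% in clusters 7 to 10, against 3.2% in cluster 3, and dnali1 at 98.5, 98.9, 95.7 and 96.5%. The spoke stalk gene rsph3 was at 20.3% in cluster 6 and 67% in cluster 8, and is not listed for cluster 7. The cochaperone gene dnaaf2 was at 66.5% in cluster 8 and 50% in cluster 10. Among assembly factors listed for both clusters 7 and 8, dnaaf1, dnaaf6 and dnaaf10 were highest in cluster 7, and dnaaf2, dnaaf3l and dnaaf4 in cluster 8. The 2 shares of dnaaf10 were nearly equal, at 55.8 and 55.4%. Cluster 8 does not list dnaaf9 or dnaaf11, and dnaaf19 is listed for cluster 8 only. For dnaaf10, shares in the 8 clusters that list it ranged between 20.7% in cluster 2 and 55.8% in cluster 7, and its 25.7% in cluster 10 lay below the 33.7% of all other cells.

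Of the 3 members without a count row, drc9, a calmodulin-binding subunit, reached 38.8% of cells in cluster 7. The spoke head gene rsph4a reached 26.4% in cluster 8, and the inner arm heavy chain dnah12 24.8% in cluster 7. Some members with a count row peaked no higher, such as dnah7 at 35.8% and dnah5 at 20%, both in cluster 7.

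The fold change of a member in TP over CP varied with its relative share in some clusters. The ratio of its share in cluster 3 to its share in all cells correlated with its log2 fold change at r = 0.846 (Spearman rho = 0.795, 27 members), with larger falls in members whose ratio was small. For cluster 9 the correlation was r = −0.742 (rho = −0.773, 25 members). Of the other clusters, r was 0.489, 0.647 and 0.61 for clusters 1, 2 and 4, 0.162, −0.06 and −0.11 for clusters 5, 6 and 7, and −0.528 and −0.623 for clusters 8 and 10. These are descriptions across genes, which are not independent replicates, and both measures come from the same scRNA-seq libraries and share their depth.

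**Figure D5:**
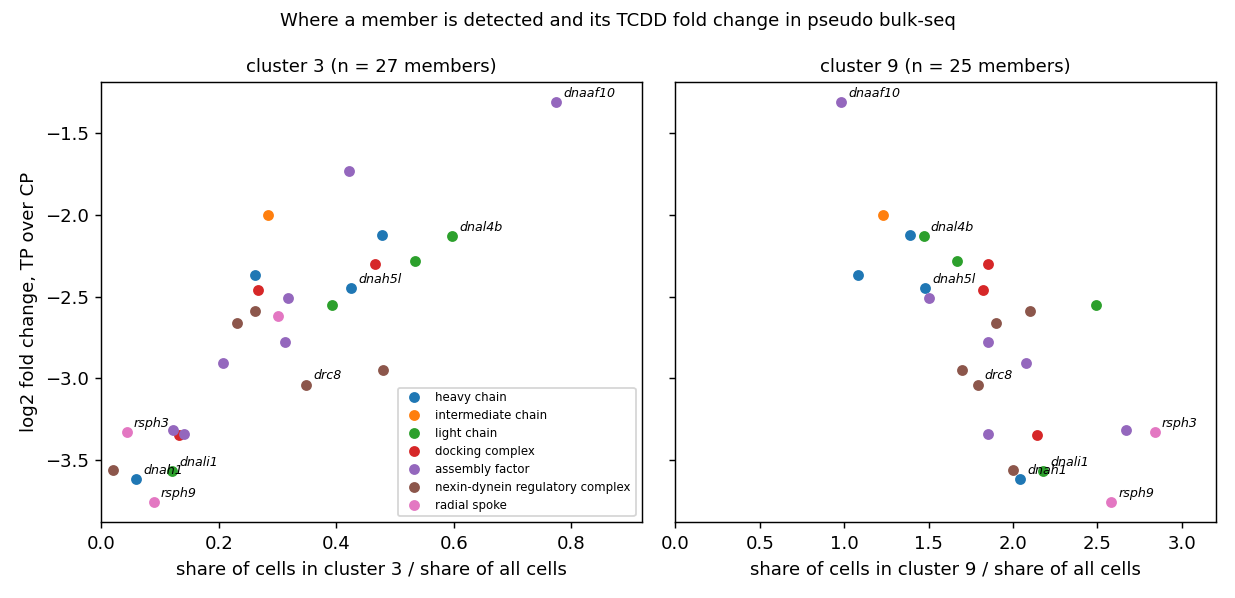
Log2 fold change of TP over CP against the ratio of the share of cells with the transcript in cluster 3 (left, 27 members) or cluster 9 (right, 25 members) to the share in all cells, coloured by class. The 2 clusters were picked for display from all 10 after the values were seen; dnaaf10 is the top point in both panels, and rsph9 the lowest.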

How the data were processed

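Bulk-seq (3′ tag libraries, sequenced single-end) and pseudo bulk-seq (10x 3′ droplets, Cell Ranger 6.01 and Seurat 4.0.4 per the labels) were analysed from 16 libraries of zebrafish testis. The authors made count tables by aligning reads to GRCz11 (bulk-seq; the study's methods give another assembly name for scRNA-seq) and deposited whole-number counts per RefSeq mRNA. 3′ reads cannot separate isoforms or paralogs with the same end. The authors' cluster tables hold deposited shares (fractions) of cells with a transcript, with at least 10.1% in one of the 2 shares of a row, and no sample column. Fold changes and p-values of the authors were deposited too and were not used.

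CD was compared with CI, TB with CB and TP with CP by the quasi-likelihood test of edgeR 4.0.16 (R 4.3.3, limma 3.58.1) after filterByExpr and TMM scaling, each within its own table and with Benjamini-Hochberg adjustment over all rows. The method difference was 1 fit over the shared accessions. A call is an adjusted p under 0.05. The SE of an edgeR log2 fold change was derived here, as its absolute value divided by the square root of the test's F statistic. DESeq2 1.42.0, 3 other scalings, no filter, summed rows per gene, a replicate block, the study's thresholds and leaving out each library were alternatives, and the script was tested on simulated data. Symbols matched 97.59% of bulk-seq and 85.23% of pseudo bulk-seq rows. Named members were all called ones, up to 30, filled to 10 by the smallest p, and the most abundant of each class. On other lists, the 2 most abundant genes and the 2 with the smallest p could be named. The members and all gene lists were chosen with earlier results of these data known. The study dissected the testes of each replicate, but the labels name no fish, and p-values measure only the spread between these libraries. One gene of another list is not reported here.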

Additional observations from a re-analysis of the deposited data

Results flagged for a closer look

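The TCDD effect differed between pseudo bulk-seq (TP over CP) and bulk-seq (TB over CB) for 14 of 19 members, against 6.15% of 4388 shared rows called lower, by the test of the difference in edgeR. Without TP replicate 2, 0 members and 1 of all rows were called. Values are log2 differences, and all were below 0. Radial spoke genes were at −3.734 for rsph9, −3.697 for rsph3 and −2.590 for rsph10b. Genes of the nexin-dynein regulatory complex were at −3.133 for drc4, −3.067 for drc3 and −2.854 for drc1, and docking genes at −3.240 for odad3 and −2.005 for odad1. Assembly factors were at −3.866 for dnaaf2, −3.105 for dnaaf6 and −2.922 for dnaaf1, and light chains at −3.804 for dnali1, −2.541 for dnal4b and −2.091 for dnal1. The bulk-seq side rests on reversed counts, and libraries from 1 suspension were fitted as independent (16 members called with the suspension as a block, rsph10b not among them). The part of the cells captured, of the chemistry and of the filter at 30 counts in this difference was not tested.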

How the results depend on the processing

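No member changed the sign of its log2 fold change in TPxCP under any alternative run. Calls there numbered 26 and 20 without TP replicates 1 and 2, and 27 to 30 otherwise. In CDxCI and TBxCB, 0 members were called under every alternative, while medians ranged from −0.032 to 0.291 and from −0.359 to 0.239. The difference between methods gave 0 to 16 calls when 1 library was left out, 0 without TP replicate 2 and 8 without TP replicate 1, against 14, and 17 by DESeq2. With fewer samples the test loses power, and any other cause was not tested.

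Over all rows, 283 calls in CDxCI became 781 by DESeq2, 612 at the study's thresholds and 105 to 178 without any of the CD replicates or CI replicate 3. The 0 calls of TBxCB became 8, 168 and, without TB replicate 1, 698. In TPxCP, 1926 calls became 1038 at the study's thresholds, 618 and 397 without TP replicates 1 and 2, and 1072 without CP replicate 3. The method difference had 307 calls, 633 by DESeq2, 503 at the study's thresholds and 1 to 1542 with 1 library left out.

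With a replicate block, 0 members were called in CDxCI (median 0.108, 367 of all rows), 0 in TBxCB (median 0.15, 0 of all rows), 30 in TPxCP (2479 of all rows) and 16 for the method difference (398 of all rows). Same-number deviations correlated at 0.261, 0.0408 and −0.0593 in CDxCI, so the numbers were not taken as pairs. They correlated at −0.0232 and −0.0854 in TBxCB and 0.258 and 0.416 in TPxCP, where groups are different fish. Between methods within a suspension they correlated at 0.287, 0.407 and 0.157 for CP with CB, and at −0.0317 for TP with TB, where 2 libraries a group give 1 value. For CP with CB of another number, values ranged from −0.495 (CP replicate 2, CB replicate 3) to 0.363 (CP replicate 1, CB replicate 3).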

Other observations

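Within bulk-seq, members varied together across libraries in a way that did not follow exposure. TB replicate 1 and CB replicate 2, 1 TCDD and 1 control, were the 2 lowest of the 5 for 16 of 29 members (55.2%), against 13.6% of the 12939 rows tested. This pair was picked after its values were seen, so the count is a description. For rsph9 TB replicate 1 had 190.4 CPM and CB replicate 2 181 CPM, while the others had 544 CPM in TB and 465 and 575 CPM in CB. For odad3 the values were 209 and 267 CPM in TB, against 332, 138 and 366 CPM in CB.

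One member, dnaaf10, had the closest pair of log2 fold changes between methods, −1.31 for TP over CP and −1.01 for TB over CB. It was also among the most widely detected assembly factors across clusters, with 20.7% of cells in cluster 2 and 25.8% in cluster 3, where dnaaf2 was at 2.2% and 2.5%. Members of other classes had higher shares in these clusters and large differences between methods. They included dnal4b, at 32.3% and 30.2% with a log2 difference of −2.54, and drc4, at 28.7% and 27% with −3.13. A link between shares and the method difference was not tested.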
